A study of Mus musculus with 8 samples.

Results

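The chromatin of depolarised cortical neurons was compared between cells without and cells with Brg1, from 1 deposited list of open sites per genotype taken after KCl. Members were all peaks on chromosomes 1 to 19 of the cKO KCl list and of the WT KCl list, and peaks of the 2 lists were matched by an overlap of 1 bp or more. The cKO KCl list held 24947 peaks and the WT KCl list 19847. Together they merged into 34541 regions, out of 60611 regions over all 4 lists of the study. Of the 34541 regions, 9624 (27.9%) had a peak in both lists, 15048 (43.6%) in cKO KCl alone and 9869 (28.6%) in WT KCl alone.

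The cells were primary neurons cultured from the cortex of mouse embryos at E16.5. Their genotype was Brg1 cKO (BAF53bCre Brg1F/F), in which Cre is driven by BAF53b, a subunit gene of the BAF complex used in neurons, or Brg1 WT, for which the labels state neither Cre nor floxed alleles. For depolarisation, the cultures were silenced on day 5 in vitro with 1 µM TTX and 100 µM APV, and 50 mM KCl was given for 1 h on day 6. Basal cultures of both genotypes had no KCl, and whether they received TTX and APV is not stated in the labels. Each condition had 2 libraries of 50000 cells and 1 peak list, so no spread between libraries could be computed and no test compares the genotypes. A lower peak in bulk chromatin can come from fewer cells of a type or from less open chromatin per cell, and the 2 cannot be told apart.

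Brg1, encoded by Smarca4, is one of the alternative ATPases of the BAF (SWI/SNF) complex, which uses ATP to slide or evict nucleosomes and so makes DNA accessible to transcription factors. Dividing neural progenitors and postmitotic neurons assemble BAF from different subunits, among them the neuronal BAF53b. High KCl depolarises the membrane, voltage-gated channels let calcium in, and calcium signalling then induces rapid response genes such as Fos, whose products in turn act on delayed response genes. ATAC-seq reads open chromatin through the Tn5 transposase, which inserts adapters where DNA is accessible.

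The fold of a peak is the authors' value of its height at the summit over the local background. Its summit pileup, the number of fragments stacked over the summit, was solved from the fold and the p-value. Median folds were 3.08 in cKO KCl and 3.03 in WT KCl, and median pileups 31 and 30 fragments. The most frequent background, which follows sequencing depth, was 8.36 fragments in cKO KCl and 8.23 in WT KCl. Most peaks thus rested on few fragments, and absence from a list means that a site did not pass the caller's threshold. The lists covered 8.89 Mb in cKO KCl and 6.80 Mb in WT KCl. On single chromosomes the ratio of peak numbers, cKO KCl over WT KCl, lay between 1.13 (chromosome 19) and 1.34 (chromosome 13).

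Smarca4 itself had a peak at its lower-coordinate end in both lists, with a fold of 5.62 in cKO KCl (chr9:21615817-21616606, GRCm38) and 5.32 in WT KCl (chr9:21615845-21616583). Since the deleted exons are not known from the labels, this peak checks nothing about the genotype. Within the gene, cKO KCl had 1 further peak of fold 2.504 and WT KCl 1 further peak of fold 2.86 at another position. Markers of cortical neurons had a gene-end peak, that is a peak within 1 kb of either end of the gene, for 6 of 11 genes in cKO KCl and 5 of 11 in WT KCl. Map2, a dendritic microtubule protein, had folds of 4.66 and 4.78, and Syt1, the calcium sensor of transmitter release, had 6.52 and 4.22, in cKO KCl and WT KCl in that order. Both lists also held peaks at the ends of Tubb3 (3.92 in cKO KCl and 3.29 in WT KCl) and Neurod6 (3.21 and 2.80). Snap25 (3.21) and Tbr1 (2.46) were called for cKO KCl only, and Stmn2 (3.03) for WT KCl only. Rbfox3, Neurod2, Slc17a7 and Slc17a6 had no gene-end peak in either list. None of 6 microglia markers had one in either list. Gene-end peaks were listed for 2 of 6 astrocyte markers and 2 of 6 oligodendrocyte markers in each list. They were listed for 3 of 6 vascular markers in cKO KCl and 1 of 6 in WT KCl, and for 4 of 6 and 2 of 6 progenitor markers. Interneuron markers had them for 2 of 6 in cKO KCl and 1 of 6 in WT KCl. Over all genes the shares were 46.5% in cKO KCl and 41.2% in WT KCl. The next counts are with cKO KCl cut to its 19847 peaks of highest fold. Calls in cKO KCl alone and in WT KCl alone were then 2 and 0 for vascular, 1 and 0 for progenitor and 0 and 1 for interneuron markers. The part of other cell types in the results below was not tested.

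The strongest gene-end sites found in 1 list alone, and the most unequal gene-end sites found in both, are shown first through their promoters, since these are the places where the lists differed most at genes. The windows run from 250 bases before to 50 bases after the annotated start (RefSeq, GRCm38.p6), on the strand of the gene. Capitals mark matches to 11 motifs searched on both strands. These were AP-1 (TGANTCA), CRE (TGACGTCA), the CCAAT box (CCAAT), the GC box (GGGCGG), NRF1 (GCGCATGC), ETS (CCGGAAG), YY1 (AAGATGGC), the E-boxes CACGTG and CAGATG, MEF2 and the CArG box of SRF. CCGGAAG reads CTTCCGG on the other strand. Rad1 and Ndufaf7 had a peak in cKO KCl alone, at chr15:10485824-10486198 and chr17:78936959-78937383. Their windows are chr15:10485788-10486087 and chr17:78936885-78937184, both on the plus strand.
Rad1: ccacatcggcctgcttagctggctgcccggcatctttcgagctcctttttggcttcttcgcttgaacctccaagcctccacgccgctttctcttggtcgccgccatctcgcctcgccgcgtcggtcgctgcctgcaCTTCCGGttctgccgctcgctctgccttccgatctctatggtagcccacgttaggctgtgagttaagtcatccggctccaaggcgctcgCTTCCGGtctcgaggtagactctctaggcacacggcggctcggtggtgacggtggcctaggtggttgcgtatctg
Ndufaf7: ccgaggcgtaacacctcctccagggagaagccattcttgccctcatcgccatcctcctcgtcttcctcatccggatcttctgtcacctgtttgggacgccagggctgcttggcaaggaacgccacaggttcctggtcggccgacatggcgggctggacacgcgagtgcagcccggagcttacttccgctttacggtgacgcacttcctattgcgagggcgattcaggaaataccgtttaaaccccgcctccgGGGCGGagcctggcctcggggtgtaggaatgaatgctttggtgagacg
Zfp948, Tmem169 and Ndufa12 had a peak in WT KCl alone, at chr17:21566677-21567025, chr1:72284203-72284472 and chr10:94198878-94199430. Their windows are chr17:21566728-21567027, chr1:72284123-72284422 and chr10:94198785-94199084, all on the plus strand, and that of Zfp948 held none of the 11 motifs.
Zfp948: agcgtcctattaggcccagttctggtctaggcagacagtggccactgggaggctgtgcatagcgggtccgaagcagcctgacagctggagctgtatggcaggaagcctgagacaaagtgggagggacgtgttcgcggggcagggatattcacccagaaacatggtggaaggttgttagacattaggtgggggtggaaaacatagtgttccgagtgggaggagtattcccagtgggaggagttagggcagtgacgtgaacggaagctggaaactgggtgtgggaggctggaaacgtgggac
Tmem169: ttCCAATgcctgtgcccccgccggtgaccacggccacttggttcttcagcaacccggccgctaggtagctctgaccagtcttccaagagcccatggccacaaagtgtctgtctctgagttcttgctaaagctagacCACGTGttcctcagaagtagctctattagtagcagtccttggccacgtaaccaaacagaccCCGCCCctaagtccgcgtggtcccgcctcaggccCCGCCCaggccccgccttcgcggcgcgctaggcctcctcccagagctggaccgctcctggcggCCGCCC
Ndufa12: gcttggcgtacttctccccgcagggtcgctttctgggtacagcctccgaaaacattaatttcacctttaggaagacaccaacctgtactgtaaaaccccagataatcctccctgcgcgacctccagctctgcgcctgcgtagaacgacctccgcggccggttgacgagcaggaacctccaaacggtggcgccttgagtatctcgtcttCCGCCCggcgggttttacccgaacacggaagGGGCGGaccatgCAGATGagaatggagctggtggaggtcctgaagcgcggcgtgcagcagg
B3galt1 had the largest ratio of fold, and Parp6 the smallest, of all strong gene-end sites with a peak in both lists, cKO KCl over WT KCl. Their windows are chr2:67565439-67565738 and chr9:59617034-59617333, both on the plus strand.
B3galt1: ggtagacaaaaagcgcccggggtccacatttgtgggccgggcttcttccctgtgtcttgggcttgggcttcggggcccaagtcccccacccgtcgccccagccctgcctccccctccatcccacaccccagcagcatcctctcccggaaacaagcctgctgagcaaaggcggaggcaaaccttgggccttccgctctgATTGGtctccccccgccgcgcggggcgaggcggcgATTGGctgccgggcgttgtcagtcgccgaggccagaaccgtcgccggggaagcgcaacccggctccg
Parp6: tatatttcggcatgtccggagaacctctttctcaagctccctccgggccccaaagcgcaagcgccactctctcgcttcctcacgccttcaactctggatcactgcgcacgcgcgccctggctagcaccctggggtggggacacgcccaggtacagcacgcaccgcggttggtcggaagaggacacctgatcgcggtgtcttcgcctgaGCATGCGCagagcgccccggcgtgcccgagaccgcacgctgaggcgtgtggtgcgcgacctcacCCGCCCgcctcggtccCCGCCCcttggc
The GC content of these windows was 62.0% for Rad1, 60.7% for Ndufaf7, 57.0% for Zfp948, 63.3% for Tmem169, 59.3% for Ndufa12, 69.0% for B3galt1 and 67.7% for Parp6, against a median of 57.0% over all 20084 windows.

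The first question was which open sites were listed for 1 genotype alone after depolarisation. Gene ends with a cKO KCl peak and no WT KCl peak within 1 kb were led by Rad1, a subunit of the clamp that signals DNA damage, with a fold of 6.95 on 64 fragments. It was followed by Ndufaf7, which helps to assemble complex I of the respiratory chain (6.05), Csgalnact1, an enzyme that starts chondroitin sulphate chains (5.99), Plekhg1 (5.80), and Actr6, an actin-related chromatin protein (5.34). All but Actr6 were open in both basal lists, and Actr6 was listed in WT basal. At Rad1 the basal folds were 4.01 in cKO basal and 7.58 in WT basal, so WT KCl was the only list without a peak at this promoter.

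Inside genes, the leading cKO KCl sites without a WT KCl peak lay in St7 (fold 6.95, chr6:17749054-17749399), in Dnm3, a dynamin of endocytosis (6.31), in Oxr1, which protects from oxidative stress (6.31), in Clcn3, a chloride exchanger of endosomes and synaptic vesicles (5.99), and in Clasp2, which binds growing microtubule ends (5.77). Clcn3 alone among these 5 was in neither basal list. The site in Clcn3 (chr8:60954715-60954961) rested on 55 fragments in cKO KCl. Between genes, the 5 leading sites were nearest to Chd2 (6.61, 53.4 kb away), Akr1e1 (6.52, 162 kb), Kiz, Ptprz1 and Pdzrn3 (5.99 each), and each of the 5 was also in the 2 basal lists.

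WT KCl peaks without a cKO KCl peak within 1 kb reached lower folds. At gene ends they were led by Zfp948 (4.87 on 44 fragments), Tmem169 (4.78), Ndufa12, a subunit of respiratory complex I (4.54), Scamp2, a membrane protein of secretory carriers (4.44), and Nol10, a nucleolar protein (4.44). Nol10 had no peak in either basal list and Scamp2 had one in WT basal alone, while the other 3 had a peak in both. Inside genes they lay in Igsf11, a synaptic adhesion gene (4.84), Trim50 (4.49), Nfyc, part of NF-Y, which binds CCAAT (4.44), Cntrl, a centriole protein, and Fam155a, a partner of a sodium leak channel (4.33 each). Between genes they included sites nearest to Gm51591 (4.55), Sptssa (4.33), Nox3 and Pdcd6ip (4.22 each).

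These unmatched sites were mostly weak. Of cKO KCl peaks, 60.3% had no overlapping WT KCl peak (95% interval 59.7 to 60.9), and of WT KCl peaks 49.7% had no overlapping cKO KCl peak (49.0 to 50.4). Intervals of shares here and below are exact Clopper-Pearson intervals, those of medians come from binomial order statistics over sites, and both cover counting error only. In the 10% of each list with the highest fold, 4.21% of cKO KCl peaks (3.45 to 5.07) and 0.957% of WT KCl peaks (0.577 to 1.49) were unmatched. In the 10% with the lowest fold the shares were 86.6% and 77.8%. The lists also differed in length, so cKO KCl was cut to its 19847 peaks of highest fold. At equal lengths 53.7% of cKO KCl peaks (53.0 to 54.4) and 53.0% of WT KCl peaks (52.3 to 53.7) were unmatched. Lists of equal length must give 2 shares close to each other, since most matches join a single peak of each list.

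The unmatched share differed more between classes of site than between the genotypes. At gene ends 30.5% of cKO KCl peaks and 19.01% of WT KCl peaks were unmatched. Inside genes the shares were 77.8% and 69.6%, between genes 81.7% and 76.1%, and over 100 kb from any gene 83.5% and 77.3%. At equal lengths they were 24.8% and 22.6% at gene ends, 72.9% and 73.0% inside genes, and 79.1% and 78.7% between genes, with cKO KCl first in each pair. Gene ends were the class whose intervals stayed apart at these lengths, at 23.9 to 25.7% in cKO KCl and 21.7 to 23.5% in WT KCl. The order of the gene-end shares changed with the length chosen. With the first 10000 peaks of each list they were 24.9% in cKO KCl and 21.7% in WT KCl. They were 26.5% and 27.9% with the first 5000, 34.7% and 36.2% with 2000, and 42.3% and 43.2% with 1000. The gene-end gap at equal lengths therefore does not compare the genotypes.

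**Figure D1:**
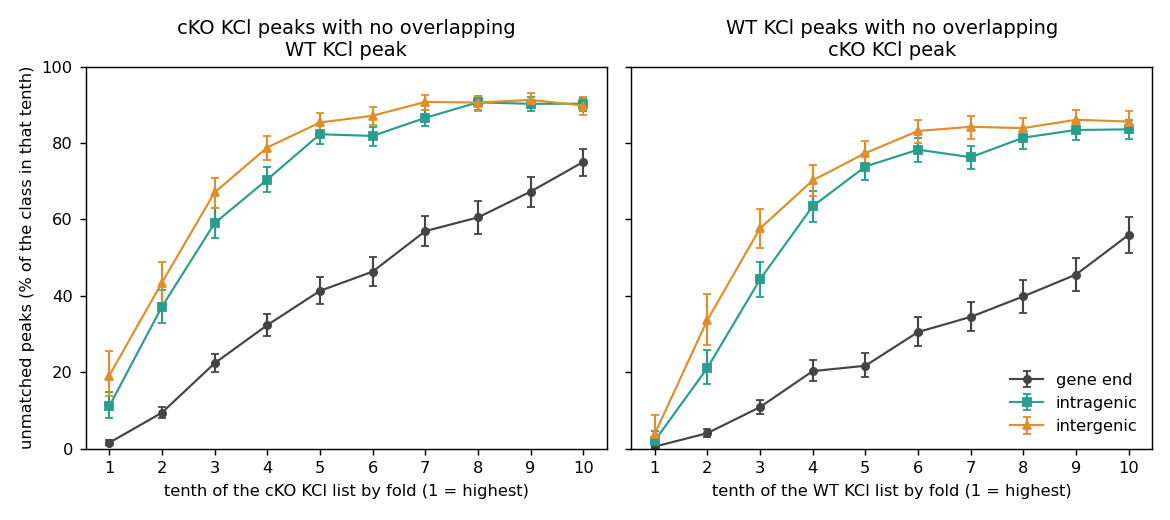
Share of cKO KCl peaks (left) and WT KCl peaks (right) with no overlapping peak in the other KCl list, in 10% bins of the list ranked by fold, for gene-end, intragenic and intergenic sites. Points are percentages and bars exact 95% intervals. In the highest 10% by fold, 1.58% of cKO KCl and 0.558% of WT KCl gene-end peaks were unmatched, and in the lowest 10%, 75.1% and 56.0%.

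At matched fold, the difference between the lists was widest at medium strength. Of peaks with a fold of 3.5 to 4, 41.1% of 3008 cKO KCl peaks and 15.5% of 2180 WT KCl peaks were unmatched. At a fold of 4 to 5 the shares were 15.4% of 2764 cKO KCl peaks and 2.81% of 1958 WT KCl peaks. At gene ends in that range they were 7.09% and 1.55%, inside genes 29.5% and 7.17%, and between genes 38.8% and 8.53%. At a fold of 5 or more, 62 of 1882 cKO KCl peaks (3.29%) and 0 of 731 WT KCl peaks were unmatched, where a count of 0, read as a limit of 3 counts, allows a share of up to 0.410% in WT KCl.

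A given fold did not stand for the same place in both lists. The peak of rank 1000 had a fold of 5.66 in cKO KCl and 4.76 in WT KCl, a ratio of 1.19. At rank 100 the folds were 7.60 and 6.30, at rank 5000 they were 3.93 and 3.47, and at rank 10000 they were 3.24 and 3.03. The ratio thus narrowed to 1.07 at rank 10000 and was 1.07 at rank 15000. At rank 19847, the last WT KCl peak and the cut for equal lengths, the folds were 2.67 and 1.61, a ratio of 1.66. At equal lengths WT KCl thus kept peaks of lower fold than any kept in cKO KCl. The strongest peaks lay at the same kinds of places, since gene ends made up 81.3% of the first 1000 cKO KCl peaks and 82.1% of the first 1000 WT KCl peaks. When the first N peaks of one list were set against the first N of the other, the unmatched shares were near each other at every N. With lists of equal length nearly every match counts once on each side. Both shares must therefore lie close to each other and do not compare the genotypes. They were 42.9% in cKO KCl and 43.1% in WT KCl for 1000 peaks, 34.3% and 33.9% for 5000, and 41.5% and 41.0% for 10000. Set against the whole other list, 1.6% of the first 1000 cKO KCl peaks and 0.3% of the first 1000 WT KCl peaks were unmatched.

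The basal lists, with 19921 peaks in cKO basal and 33328 in WT basal, tell whether a site that was open in the KCl list of 1 genotype was open at all without KCl. Of the 105 unmatched cKO KCl peaks in the highest 10% by fold, 67 (63.8%, 53.9 to 73.0) overlapped a peak in both basal lists, 24 in WT basal alone, 5 in cKO basal alone and 9 in neither. Among the 2390 matched cKO KCl peaks of the same strength, 96.9% overlapped a peak in both basal lists and 99.3% one in WT basal. At 91 of these 105 sites (86.7%) the WT list thus had a peak without KCl and none after it. Of the 19 unmatched WT KCl peaks in the highest 10%, 9 overlapped a peak in both basal lists, 5 in WT basal alone and 5 in neither. Among all unmatched peaks, 67.9% of 15048 in cKO KCl and 77.7% of 9869 in WT KCl had no peak in either basal list. By contrast, 9.15% of matched cKO KCl peaks and 9.44% of matched WT KCl peaks had none.

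**Figure D2:**
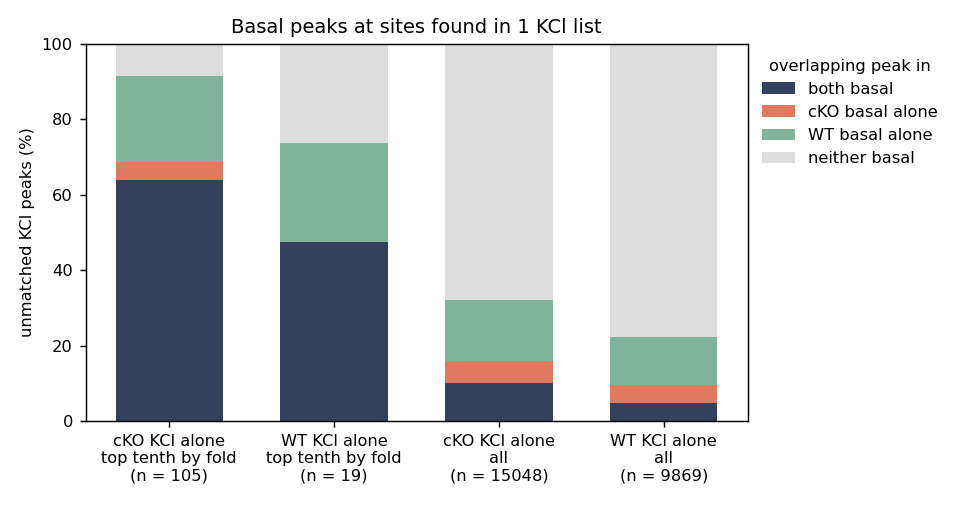
Share of unmatched KCl peaks with an overlapping peak in both basal lists, in cKO basal alone, in WT basal alone or in neither, for the highest 10% by fold and for all unmatched peaks of cKO KCl and WT KCl. Of the strongest unmatched sites 63.8% in cKO KCl and 47.4% in WT KCl were in both basal lists, and of all unmatched sites 10.2% and 4.76%.

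The second question was how strongly sites open in both genotypes differed. Among 9031 peaks matched 1 to 1, the median log2 ratio of fold, cKO KCl over WT KCl, was 0.14 (0.13 to 0.14), and 69.1% of pairs had the higher fold in cKO KCl. The 2 folds had a Spearman correlation of 0.672 over these pairs, given as a description. The median was 0.16 at 6082 gene ends, 0.10 at 1779 intragenic and 0.10 at 1170 intergenic pairs. It was 0.03 in the 20% of pairs with the lowest mean fold and 0.25 in the 20% with the highest. Matched peaks were also wider in cKO KCl, by a median ratio of 1.10. Between the basal lists the median log2 ratio, cKO basal over WT basal, was -0.12 over 9502 pairs, at -0.02 in the lowest and -0.23 in the highest 20%. The sign of the shift was therefore opposite in the 2 treatments, and its size was larger at pairs of higher mean fold in both. Sites enter as pairs only where both peaks passed the caller, which narrows the ratios possible at low mean fold. The part of this limit in the rise with mean fold was not tested. A genotype effect and a difference between libraries that acts on all sites cannot be told apart with 1 list per condition.

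**Figure D3:**
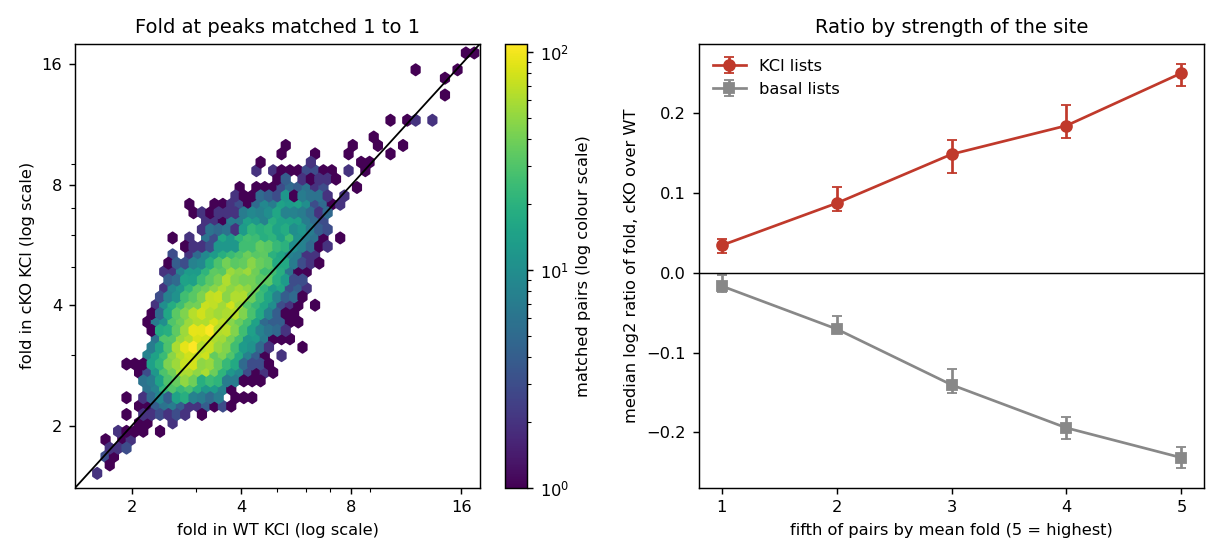
Left, fold in cKO KCl against fold in WT KCl at 9031 peaks matched 1 to 1, both axes log scaled, with colour for the number of pairs and a line of equal fold. Right, median log2 ratio of fold, cKO over WT, in 20% bins of mean fold for the KCl and the basal lists, with 95% intervals. The KCl medians lay between 0.03 and 0.25 and the basal medians between -0.23 and -0.02.

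Ratios of single sites are therefore given relative to the median shift of 0.14. The same value was used at all sites, although the median was 0.03 in the bin of lowest mean fold and 0.25 in the highest. At sites of high mean fold, centring thus took off less than the median of their own bin. Ratios higher in cKO KCl came out larger there, and lower ones smaller in size, than against that median. The counts were not repeated with a shift per bin. After centring on 0.14, 204 of 9031 pairs (2.26%) were over 1.5-fold higher in cKO KCl and 146 (1.62%) over 1.5-fold lower. The shares were alike across classes, at 2.29% higher and 1.56% lower at gene ends, 2.19% and 1.80% inside genes, and 2.22% and 1.62% between genes. Fragment counts at such peaks were low, and no replicate error exists for these ratios.

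Strong gene-end sites with the highest ratios were B3galt1, a galactosyltransferase gene, Tab2, an adaptor of inflammatory kinase signalling, and Cttnbp2nl, a cortactin-binding protein. B3galt1 (chr2:67565215-67566420) had folds of 6.72 in cKO KCl and 3.03 in WT KCl, on 65 and 27 fragments, a centred log2 ratio of 1.01. Tab2 had 6.81 and 3.12 (centred 0.99), and Cttnbp2nl 7.29 and 3.38 (0.97). Zfp712 (5.34 and 2.60) and Igsf10 (5.99 and 2.92) followed. Away from gene ends, the highest ratios lay at 2 neighbouring sites nearest to Sfi1 on chromosome 11, then in Pex2, a peroxisome assembly gene (6.84 in cKO KCl and 3.14 in WT KCl), in Map3k20, a stress kinase (5.99 and 2.82), and in Kcnd3, an A-type potassium channel (5.42 and 2.60). The stronger Sfi1 site (chr11:3101139-3102450) had a fold of 7.04 in cKO KCl and 2.82 in WT KCl, and 6.93 in cKO basal and 3.01 in WT basal. Both cKO lists were therefore high there and both WT lists low. No mask of repeated or poorly mappable sequence was applied here to the lists, and its part at this site was not tested.

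At the other end, Parp6, an ADP-ribosyltransferase gene, had folds of 3.23 in cKO KCl and 5.86 in WT KCl, on 31 and 57 fragments, a centred log2 ratio of -0.99. Aen, a nuclease gene known as a p53 target, had 2.75 and 4.82 (centred -0.95), and AU022252 had 3.01 and 5.08 (-0.89). Patl1, which acts in mRNA decapping (2.90 in cKO KCl and 4.84 in WT KCl), and Reps1, which acts in endocytosis (3.28 and 5.35), completed the 5. Away from gene ends the lowest ratios were nearest to Sec61g (2.99 in cKO KCl and 5.20 in WT KCl, 119 kb away) and inside Inpp5k, Spg21, Tmem135 and Copg2.

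The same sites were then read in the basal lists, which the choice of sites did not use. Of the 204 sites over 1.5-fold higher in cKO KCl, 179 were also listed in cKO basal and WT basal, and of the 146 over 1.5-fold lower, 88 were. The median basal log2 ratio, cKO basal over WT basal, was -0.26 (-0.30 to -0.21) at the sites higher in cKO KCl, -0.20 (-0.25 to -0.09) at those lower, and -0.17 over all 6475 shared sites with both basal peaks. Passing 1.5-fold the same way in the basal pair, relative to that median, were 5 of the 179 and 3 of the 88. The opposite way went 5 of the 179 and 0 of the 88, and over all 6475 sites 102 (1.58%) were over 1.5-fold higher in cKO basal and 98 (1.51%) lower. The 5 higher in both cKO lists were the stronger Sfi1 site, the gene ends of C2cd5, of Kmt2e, a chromatin protein of the histone methyltransferase family, and of Dync1i1, a dynein subunit of axonal transport, and a site near Bri3bp. The 3 lower in both were the gene ends of Rps13, a ribosomal protein, of the zinc finger gene Zfp788 and of Capn7, a calpain protease. Zfp788 had folds of 3.49 in cKO KCl and 4.90 in WT KCl, and 3.53 in cKO basal and 7.25 in WT basal. These 8 were chosen after their values were seen.

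Across all 20661 protein-coding genes of chromosomes 1 to 19, 7510 had a gene-end peak in both lists, 2093 (10.1%) in cKO KCl alone and 1000 (4.84%) in WT KCl alone. At equal list lengths the counts were 1567 (7.58%) for cKO KCl alone and 1340 (6.49%) for WT KCl alone. Within 50 kb of the gene, 8821 genes (42.7%) had more regions in cKO KCl and 4355 (21.1%) had fewer, while at equal lengths 5923 (28.7%) had more and 6602 (32.0%) fewer. These are the background for 22 gene lists, and a list near these shares shows nothing about its own genes. The all-gene shares apply to every count of calls below, also where they are not repeated. Adjacent genes share regions and sometimes a gene-end peak. Regions within 50 kb were counted over the whole gene body and 50 kb on each side. A long gene was thus counted over more sequence than a short one, and the all-gene shares were not matched for gene length. The shares were also not matched for having a gene-end peak at all, which 48.7% of all genes had in neither list.

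**Figure D4:**
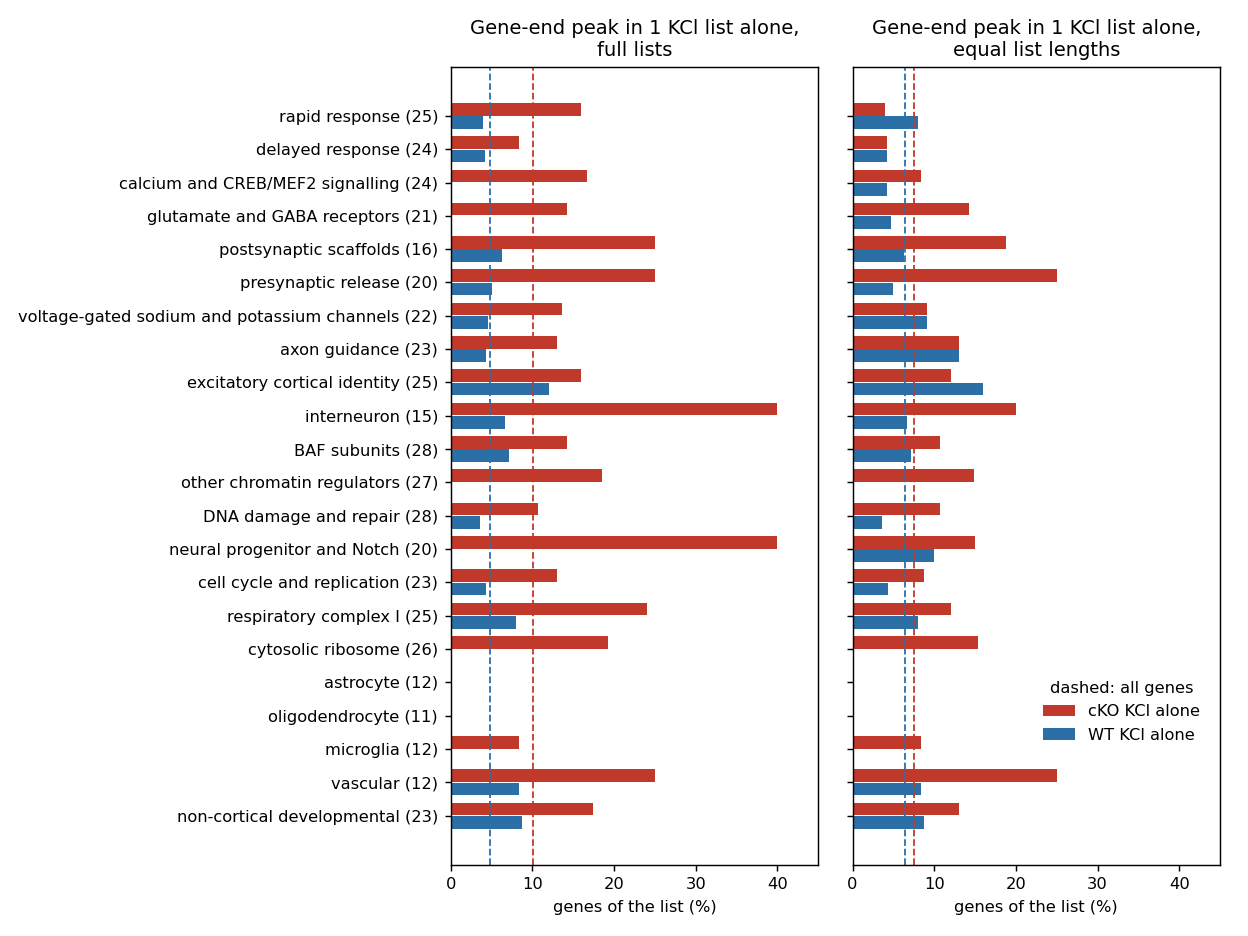
Percent of the genes of each list (number on chromosomes 1 to 19 in brackets) with a gene-end peak in cKO KCl alone or in WT KCl alone, for the full lists (left) and at equal list lengths (right). Dashed lines give all genes, at 10.1% and 4.84% for the full lists and 7.58% and 6.49% at equal lengths. The neural progenitor and Notch list stands at 40.0% and 0% in the full lists and at 3 and 2 of 20 genes at equal lengths.

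Among 25 rapid response genes, 15 had a gene-end peak in both lists, 4 in cKO KCl alone and 1 in WT KCl alone. The 4 were Egr4 (fold 3.09), Ier2 (2.60), Egr3 (2.59) and Arc (1.91), and the 1 was Klf4 (3.23). Egr3 and Egr4 encode zinc finger factors of the early growth response family and Arc a synaptic protein that acts in receptor endocytosis. Egr4 and Egr3 had no peak in either basal list, so cKO KCl was the only list with one. At equal lengths Egr4 alone stayed in cKO KCl alone. The peaks of Ier2, Egr3 and Arc fell below the cut by fold and were no longer counted. They rested on 34, 37 and 34 fragments in that order, above the list median of 31. Dusp1 came to WT KCl alone although cKO KCl had a peak there on 35 fragments. The promoter windows of Egr4 and Klf4 are shown because these were the rapid response genes whose call held at equal lengths, at chr6:85513540-85513839 and chr4:55532426-55532725, both on the minus strand.
Egr4: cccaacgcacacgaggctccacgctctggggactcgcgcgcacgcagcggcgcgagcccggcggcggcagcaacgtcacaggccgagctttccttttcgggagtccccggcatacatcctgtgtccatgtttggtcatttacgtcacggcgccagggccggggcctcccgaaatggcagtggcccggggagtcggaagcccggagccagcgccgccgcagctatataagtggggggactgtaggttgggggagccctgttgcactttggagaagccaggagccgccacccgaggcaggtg
Klf4: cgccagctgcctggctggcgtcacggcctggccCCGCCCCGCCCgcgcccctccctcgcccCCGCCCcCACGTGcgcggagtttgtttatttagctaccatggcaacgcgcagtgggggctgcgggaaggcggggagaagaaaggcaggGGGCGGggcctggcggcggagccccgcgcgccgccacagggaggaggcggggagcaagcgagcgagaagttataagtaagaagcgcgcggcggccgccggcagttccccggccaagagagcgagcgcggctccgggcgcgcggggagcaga
The Egr4 window held none of the 11 motifs. The Klf4 window held 4 GC boxes and an E-box. The Egr4 peak (chr6:85513586-85513831) rested on 43 fragments and the Klf4 peak on 42.

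Rapid response genes with a peak in both lists had a median log2 ratio of fold of 0.14, against 0.16 for all 7510 such genes. Fos, the AP-1 subunit most used as a marker of neuronal activity, had a fold of 2.89 in cKO KCl and 2.88 in WT KCl, and 2.19 in cKO basal and 3.504 in WT basal. Jun, its partner, had 3.79 and 3.54 in the KCl lists, and Egr1 had 3.40 and 3.25, cKO KCl first. Junb had 2.93 in cKO KCl and 2.53 in WT KCl, and Gadd45b, a stress and demethylation gene, had 3.02 and 3.10. Neither Junb nor Gadd45b had a gene-end peak in a basal list, so both KCl lists held a peak that no basal list held. The widest ratios within this list were Klf10 (4.98 in cKO KCl and 3.27 in WT KCl, centred log2 ratio 0.47) and Nr4a2, an orphan nuclear receptor (4.17 and 2.82, centred 0.43). The lowest were Dusp1, a phosphatase of MAP kinases (2.45 and 2.87, centred -0.36), and Ier5 (3.40 and 3.94, centred -0.35). These genes were picked after their values were seen, and none passed 1.5-fold after centring. Npas4, Nr4a1, Fosb, Egr2 and Ccn1 had no gene-end peak in any list.

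**Figure D5:**
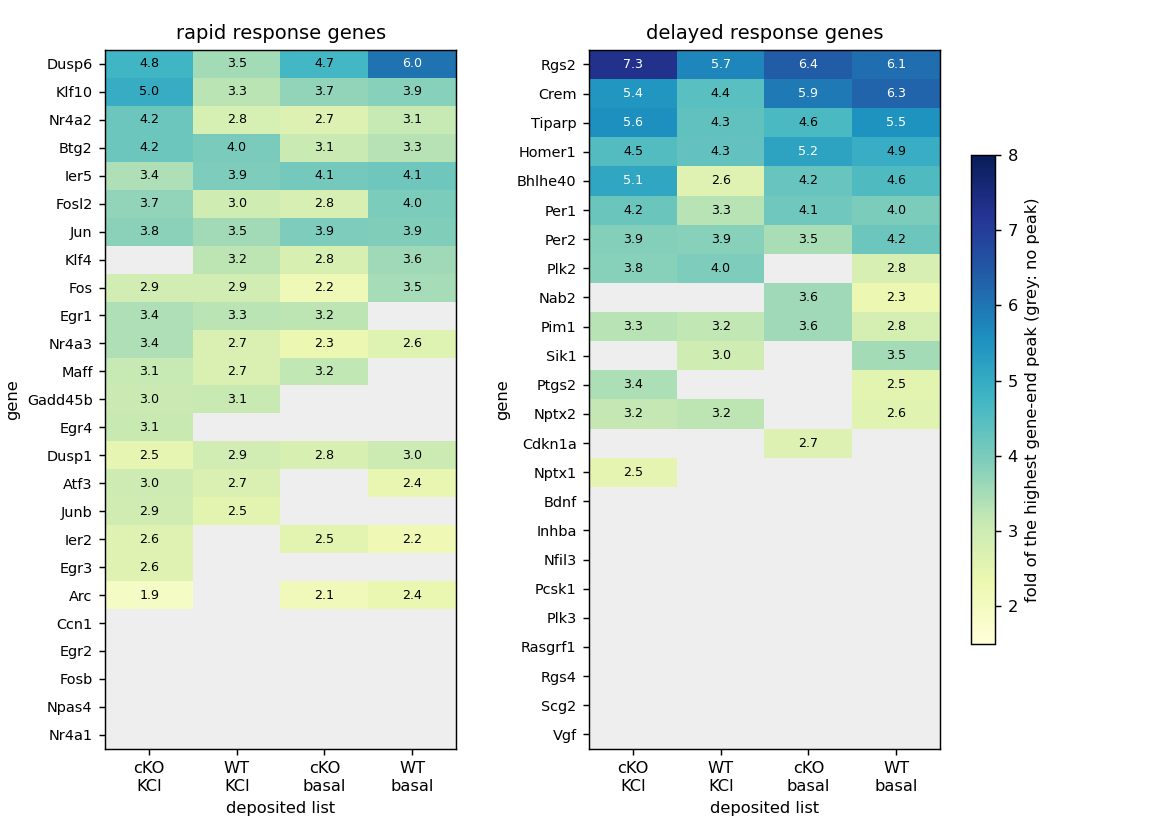
Fold of the highest gene-end peak of each rapid (left) and delayed (right) response gene in the 4 deposited lists, with grey where no peak was listed. Egr4 and Egr3 were listed in cKO KCl alone of the 4 lists, and Bhlhe40 had 5.10 in cKO KCl and 2.60 in WT KCl.

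Of 24 delayed response genes, 10 had a gene-end peak in both lists, Ptgs2 (3.42) and Nptx1 (2.48) in cKO KCl alone and Sik1 (2.95) in WT KCl alone. These calls were 8.33% and 4.17% of the delayed genes, near the 10.1% and 4.84% of all genes. Ptgs2 encodes the inducible cyclooxygenase, Nptx1 a neuronal pentraxin that clusters glutamate receptors, and Sik1 a kinase that restrains CREB signalling. Bhlhe40, a repressor of the clock machinery, had the widest ratio, at 5.10 in cKO KCl and 2.60 in WT KCl on 81 and 33 fragments, with 4.24 in cKO basal and 4.56 in WT basal. Its centred log2 ratio was 0.83, and it was picked after its value was seen. Rgs2, a brake on G protein signalling, had 7.27 in cKO KCl and 5.74 in WT KCl (centred 0.20), and Per2, a clock gene, had 3.87 and 3.85 (centred -0.13). Bdnf, the neurotrophin gene, had no gene-end peak in any list, with 5 regions within 50 kb in cKO KCl and 3 in WT KCl. The widest net change in regions among the delayed genes went the other way, at Plk3, with 2 in cKO KCl and 6 in WT KCl. More regions within 50 kb in cKO KCl were counted for 14 of 25 rapid and 14 of 24 delayed response genes, and fewer for 5 and 3. Over all genes 42.7% had more and 21.1% fewer. At equal lengths the rapid list had 8 with more and 10 with fewer, and the delayed list 7 and 4, against 28.7% of all genes with more and 32.0% with fewer.

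Genes that carry calcium signals to the nucleus (24) had 4 gene-end peaks in cKO KCl alone and none in WT KCl alone. They were Cacna1a, a voltage-gated calcium channel (fold 3.901), Camkk2, a kinase that activates CaM kinases (3.20), Camk2b, a subunit of CaM kinase II (2.32), and the channel subunit gene Cacnb1 (2.31). The Cacnb1 peak had the same value as that of its neighbour Rpl19 and is 1 site. At equal lengths the calls were 2 and 1. Cacna1c, an L-type channel gene, had 12 regions within 50 kb in cKO KCl and 4 in WT KCl, against 6 in cKO basal and 13 in WT basal. The median log2 ratio was 0.01 over the 11 genes with a peak in both lists, 6 of them above 0, against 0.16 over all genes.

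Among glutamate and GABA receptors (21), 3 were listed at a gene end in cKO KCl alone, including the metabotropic receptor genes Grm5 (3.85) and Gabbr2 (3.11), and none in WT KCl alone. The 3 held at equal lengths, where 1 gene came to WT KCl alone. Over the 10 receptor genes with a peak in both lists the median log2 ratio was -0.02. Grin2a, an NMDA receptor subunit, had 11 regions within 50 kb in cKO KCl and 3 in WT KCl, with 2 in cKO basal and 6 in WT basal. Postsynaptic scaffold genes (16) had Dlgap2 (3.16), Lrrtm2 (3.10), Shank3 (2.70) and Homer3 (2.22) in cKO KCl alone and Shank2 (2.93) in WT KCl alone, and the 6 with a peak in both lists had a median log2 ratio of -0.02. Presynaptic release genes (20) had Cplx2 (3.56), Snap25 and Syt4 (3.21 each), Bsn (2.92) and Cplx1 (2.82) in cKO KCl alone, and Unc13a, a vesicle priming factor (2.23), in WT KCl alone. Complexins clamp vesicle fusion, Snap25 is a fusion protein of the SNARE complex and Bsn organises the active zone. This list had 5 of 20 genes in cKO KCl alone both in the full lists and at equal lengths, where all genes stood at 10.1% and 7.58%, and its 5 peaks rested on 29 to 42 fragments. In the full lists 10.0% of its genes had a gene-end peak in neither list, against 48.7% of all genes. The shares were not matched for this.

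Channel genes for sodium and potassium (22) had Kcnj6 (2.95), Kcnd2 (2.89) and Kcnc1 (2.65) in cKO KCl alone and Kcna1 (2.85) in WT KCl alone. Axon guidance genes (23) had the receptor gene Robo2 (3.95), the semaphorin receptor gene Nrp2 (3.10) and Slit3 (2.80) in cKO KCl alone and Nrp1 (3.01) in WT KCl alone. More regions within 50 kb in cKO KCl were counted for 18 of 23 axon guidance genes and fewer for 3, against 42.7% and 21.1% of all genes. At equal lengths the counts were 12 and 6, against 28.7% and 32.0% of all genes.

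Identity genes of excitatory cortical neurons (25) divided 4 to 3. Neurod1 (3.31), Foxp2 (3.09), Sox5 (3.04) and Tbr1 (2.46) were listed at a gene end in cKO KCl alone, and Emx1 (2.82), Bcl11b (2.58) and Cux2 (2.53) in WT KCl alone. Foxp2, Sox5 and Tbr1 are known from deep-layer neurons, as is Bcl11b, and Cux2 from upper-layer neurons. At equal lengths the division was 3 to 4. Nfia, a factor of glial and neuronal maturation, had 16 regions within 50 kb in cKO KCl and 6 in WT KCl, with 7 in cKO basal and 17 in WT basal. Interneuron genes (15) had Npy (2.89), Calb2 (2.87), Dlx6 (2.79), Nkx2-1 (2.51), Dlx2 (2.48) and Gad1 (2.45) in cKO KCl alone and Dlx1 (2.71) in WT KCl alone. Of these, 3 stayed in cKO KCl alone at equal lengths, when 1 was in WT KCl alone. All genes stood at 10.1% and 4.84% in the full lists and at 7.58% and 6.49% at equal lengths.

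The neural progenitor and Notch list (20) had 8 gene-end peaks in cKO KCl alone and none in WT KCl alone. They were Id1 (3.496), Eomes (2.99), Notch3 (2.95), Msi1 (2.67), Dll1 (2.60), Prom1 (2.57), Hes5 (2.44) and Notch1 (2.36). Id1 blocks neurogenic bHLH factors, Eomes marks intermediate progenitors, Dll1 is a ligand and Notch1 and Notch3 are receptors of the pathway, and Hes5 is a target. At equal lengths 3 stayed in cKO KCl alone (Id1, Eomes and Notch3) and 2 others came to WT KCl alone. The count of 8 thus rests in part on peaks near the end of the longer list by fold, such as Hes5 on 42 fragments. The 40.0% and 0% of this gene list in the full lists stood against 10.1% and 4.84% of all genes. At equal lengths all genes stood at 7.58% and 6.49%. Cell cycle genes (23) had Top2a (2.99), Cdk2 (2.87) and Ccnd2 (2.44) in cKO KCl alone and Ccnd1 (2.90) in WT KCl alone.

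Among 28 genes of BAF subunits, 18 had a gene-end peak in both lists. Smarce1 and Ss18 (3.63 each), the core subunit gene Smarcb1 (2.70) and Smarcd3 (2.44) had one in cKO KCl alone, and Dpf2 (3.51) and Actl6b (3.25) in WT KCl alone. Actl6b encodes BAF53b, whose regulatory sequences drive the Cre of the cKO, and it had basal peaks of 2.63 in cKO basal and 3.13 in WT basal. It also had 2 regions within 50 kb in cKO KCl and 6 in WT KCl. Arid1b, a large DNA-binding subunit, had 14 regions in cKO KCl and 6 in WT KCl, with 13 in each basal list. Other chromatin regulators (27) had Kmt2d (3.25), Tet1 (3.10), Chd4 (2.83), Ezh1 (2.78) and Tet3 (2.30) in cKO KCl alone and none in WT KCl alone. At equal lengths the calls were 4 and 0.

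Genes of DNA damage and repair (28) had Rad1, Ercc1, an excision repair nuclease subunit (3.49), and Trp53bp1 (2.81) in cKO KCl alone and Fancd2, of the crosslink repair pathway (2.82), in WT KCl alone. Complex I genes (25) had Ndufaf7, Ndufb8 (2.95), Ndufs7 (2.87), Ndufa10 (2.58), Ndufb10 (2.53) and Ndufaf3 (2.33) in cKO KCl alone, and Ndufa12 and Ndufa9 (3.79) in WT KCl alone. Regions within 50 kb were more in cKO KCl for 11 complex I genes and fewer for 11, against 42.7% and 21.1% of all genes. Ribosomal protein genes (26) had 5 in cKO KCl alone, including Rpl5 (3.53), Rpl18 (3.17), Rpl10a (3.09) and Rpl19 (2.31), and none in WT KCl alone, and 17 with a peak in both lists had a median log2 ratio of 0.05.

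Lists of other cell types that cultures from cortex can hold differed in their calls. Astrocyte (12) and oligodendrocyte (11) genes had none in either list alone. Microglia genes (12) had 1 in cKO KCl alone and none in WT KCl alone. Vascular genes (12) had Kdr (3.63), Foxc1 (3.04) and Pdgfrb (2.78) in cKO KCl alone and Sox17 (3.32) in WT KCl alone. The 3 vascular calls are 25% of that list and all held at equal lengths, against 10.1% and 7.58% of all genes. Genes of lineages outside the cortex (23) had Hoxd13 (3.21), T (2.79), Tbx20 (2.72) and Tal1 (2.41) in cKO KCl alone and Sox17 and Hoxc8 (2.88) in WT KCl alone, shares of 17.4% and 8.70%. The part of such genes' own background in the neuronal calls was not tested.

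Promoter windows were matched for 16456 of the 20661 genes, as 20084 windows. A peak in cKO KCl alone overlapped 1819 windows, a peak in WT KCl alone 811, peaks of both lists 6281 and no peak 11173. Base composition was alike in the first 2 groups, with a median GC content of 61.3% for cKO KCl alone and 61.3% for WT KCl alone, against 64.7% for both lists and 50.7% for no peak. The observed over expected CpG ratio was 0.736, 0.751, 0.841 and 0.275 in that order. In 20% bins of GC content, windows with a peak in cKO KCl alone outnumbered those in WT KCl alone 3.26 times in the lowest bin, which held 62 and 19 such windows, and 1.93 to 2.40 times in the other 4. At windows with 1 pair of matched peaks the median log2 ratio of fold lay between 0.16 and 0.17 in every bin.

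Motifs did not share one order across these groups. The GC box was in 62.4% of windows of cKO KCl alone (60.1 to 64.6), 64.2% of WT KCl alone (60.8 to 67.5), 76.0% of both lists, 27.0% of no peak and 47.0% of all windows. At equal list lengths it was in 60.6% of cKO KCl alone (58.1 to 63.1) and 66.6% of WT KCl alone (63.6 to 69.5). These intervals lay apart. At those lengths WT KCl alone held 1027 windows and not 811, because windows whose cKO KCl peak fell below the cut were counted there. The 11 motifs were each read in the full lists and at equal lengths, some genes had several windows, and no difference was tested. CCAAT was in 31.9% of cKO KCl alone, 32.8% of WT KCl alone, 43.7% of both, 36.4% of no peak and 38.1% of all. The AP-1 motif, bound by Fos and Jun dimers, was in 5.11% of cKO KCl alone (4.15 to 6.23), 4.44% of WT KCl alone (3.13 to 6.09), 3.18% of both, 9.74% of no peak and 7.06% of all windows. The CRE, bound by CREB, was in 3.08% of cKO KCl alone (2.33 to 3.98), 2.10% of WT KCl alone (1.23 to 3.34) and 2.30% of all. For cKO KCl alone, WT KCl alone and all windows in that order, ETS was in 15.8%, 16.52% and 11.9%, NRF1 in 5.22%, 6.29% and 3.55%, YY1 in 3.24%, 4.81% and 3.06%, CAGATG in 11.5%, 12.6% and 14.6%, CArG in 0.825%, 0.986% and 1.43%, and MEF2 in 0.330%, 0.617% and 0.498%. In the full lists the widest gap between the first 2 groups was at CACGTG, in 10.1% of windows of cKO KCl alone (8.77 to 11.6), 13.8% of WT KCl alone (11.5 to 16.4) and 7.89% of all, with intervals that overlapped at their ends. At equal list lengths it was in 9.82% of cKO KCl alone (8.35 to 11.5) and 13.7% of WT KCl alone (11.7 to 15.99). The intervals did not overlap, and the limits given for the GC box at equal lengths hold here too. Windows with a match differed little from those without in the ratio of fold at shared sites, with the CCAAT box at a median log2 ratio of 0.19 with a match and 0.15 without, over 2637 and 3460 windows. A match describes letters in a window, and binding was not measured.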

How the data were processed

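ATAC-seq was run on 8 libraries of 4 conditions, and the 2 KCl conditions are compared here. Per the submitters' processing notes, reads were handled with Bowtie2 and MACS2 on GRCm38 (mm10). Versions, filters and the way libraries were pooled were not given in the sources used here. Per condition, the authors deposited a single nucleosome-free peak list with, for each peak, a fold over background (ratio), −log10 p, −log10 q and the summit distance in bp. The deposited fold is the authors' own value, and its comparison between lists called separately is a description. A whole-number summit pileup was solved from fold and p-value for 100% of peaks (tolerance 0.001 in −log10 p). Read totals per list are unknown, although the labels state 60 M reads per library.

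Peaks of chromosomes 1 to 19 were matched by an overlap of 1 bp. Sites were gene ends (within 1 kb of either end of a protein-coding gene), intragenic or intergenic. Gene starts had been planned, but strand was at hand for 79.6% of genes, so either end was used and gene starts were an alternative chosen after seeing the data. Genes and promoters came from RefSeq (GRCm38.p6). No columns belonged to unmatched samples (0). Python 3.11.15, pandas 2.3.3, numpy 2.4.6, scipy 1.17.1 and matplotlib 3.10.9 were used, and matching and pileup recovery were tested on simulated peaks.

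The members and gene lists were chosen with earlier results of these data known. Of 477 list entries, 15 were not on chromosomes 1 to 19. The named sites are, per class, the 5 unmatched peaks of highest fold in each list with no other peak within 1 kb, then the 5 highest and 5 lowest fold ratios among matched peaks in the upper 50% by mean fold. From each gene list come the members whose gene-end call differs (up to 6) or whose regions within 50 kb differ most. Some genes that this rule names are not reported here. Alternatives covered the overlap rule, thresholds on q and fold, ranks, list lengths, gene-end distances and windows.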

Additional observations from a re-analysis of the deposited data

Results flagged for a closer look

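Peaks on the X chromosome lie outside the comparison of chromosomes 1 to 19. There were 739 in cKO KCl and 378 in WT KCl, a ratio of 1.96, while on single autosomes the ratio lay between 1.13 and 1.34. In the basal lists there were 558 in cKO basal and 728 in WT basal, a ratio of 0.766, against 0.568 to 0.635 on autosomes. This ratio of peak numbers was higher on X than on every autosome in both treatments. At 207 X sites matched 1 to 1 between the KCl lists the median log2 ratio of fold was 0.18 (0.13 to 0.24), and autosomes ranged from 0.10 to 0.18. At 253 X sites matched between the basal lists it was -0.154 (-0.184 to -0.103), just below the autosomal range of -0.153 to -0.0974. The labels do not give the sex of the embryos, and its part in the X counts was not tested.

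The median log2 ratio of fold at shared sites, cKO over WT, was 0.136 in the KCl lists and -0.124 in the basal lists. The shift between the cKO and WT lists thus had opposite signs in the 2 treatments. At shared sites the longer list of each pair had the higher folds in the median. Over the whole lists this held after KCl only. The median fold of all peaks was 3.08 in cKO KCl and 3.03 in WT KCl, but 2.88 in cKO basal and 2.82 in WT basal. The lengths were 24947 peaks in cKO KCl and 19847 in WT KCl, and 19921 in cKO basal and 33328 in WT basal. With 1 list per condition, neither the shift nor the part of list length in it was tested.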

How the results depend on the processing

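Each value rests on 1 list per condition, so leaving out a library was not possible, and depth beyond the background pileup is unknown. No paired analysis was possible because each condition had 1 deposited list that combines its libraries. In each pair below cKO KCl stands first and WT KCl after it. The unmatched shares of the full lists (60.3% and 49.7%) were 62.4% and 52.3% with an overlap of at least 50% of the shorter peak, 68.3% and 60.1% with summits within 150 bp, 58.0% and 47.4% with a gap of up to 200 bp, 57.7% and 43.8% at a −log10 q of at least 3, and 51.1% and 37.5% at a fold of at least 3. Adding X moved them within their intervals. At equal lengths (53.7% and 53.0%) they were 55.7% and 55.2%, 62.4% and 62.4%, and 51.6% and 50.9% under the 3 overlap rules, 52.8% and 52.2% by −log10 p or −log10 q rank, 34.3% and 33.9% for the top 5000 and 41.5% and 41.0% for the top 10000. In the top 10% by fold (4.21% and 0.957%) summits within 150 bp gave 12.5% and 7.41%, −log10 p rank gave 3.05% and 0.353%, and the top 2000 gave 3.25% in cKO KCl. These settings kept the larger share in cKO KCl except summits within 150 bp at equal lengths, where the shares were equal. With only the first 1000 or 2000 peaks of each list set against each other, the share was larger in WT KCl (42.9% and 43.1%, 37.2% and 37.3%). Shares at equal lengths must lie close to each other, so their order there does not compare the genotypes. Genes with a gene-end peak in 1 list alone (2093 and 1000) stayed within 1.5 times under the 6 alternatives, at 1512 to 2302 and 681 to 1340. The median log2 ratio of fold (0.14) was 0.147 with summits within 150 bp, 0.160 at equal lengths and 0.114 after division by each list's median. The cause of these shifts was not tested. The median net number of regions within 50 kb was above 0 in 17 of 22 gene lists, in 8 with a 10 kb window, in 19 with 100 kb, and in 3 at equal lengths, where 2 lay below 0.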
